A study of Mus musculus with 10 samples.

Results

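The genes followed here belong to the renin-angiotensin system: *Agt*, *Agtr1a*, *Agtr1b*, *Agtr2*, *Ace*, *Enpep*, *Lnpep* and *Atp6ap2*, which are 8 of the 55487 genes counted in 10 RNA sequencing libraries of the mouse mammary gland. *Agtr1a* was chosen because its level differed between genotypes in mammary epithelial cells (MECs), and the other 7 because they belong to the same system. All were read out in every library, by cell type and genotype. The MEC comparison of genotypes that brought *Agtr1a* in is therefore described for the 8 genes without a test, and so is the level of *Agtr1a* between cell types, since it reuses the same MEC libraries.

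All libraries came from 10-wk-old female BALB/c mice in diestrus, the phase of the estrous cycle in which progesterone is high and alveolar buds form. *Cebpb*ΔM mice, labelled as C/EBPb knockdown, carried *Csf1r-iCre* and floxed *Cebpb* (*Cebpb* fl/fl), so that the transcription factor C/EBPβ is removed from cells that have expressed the CSF1 receptor, which are mainly macrophages. Mice labelled wild type (WT) carried the same floxed *Cebpb* without Cre, so both genotypes share the floxed allele. MECs were what remained after cells with lineage markers of other cell types were taken out (2 WT and 2 *Cebpb*ΔM libraries), and macrophages were selected by F4/80, a surface protein of mouse macrophages (2 WT and 4 *Cebpb*ΔM libraries). The question of the design is how these cells differ when macrophages lack C/EBPβ. The sources used here do not say how many animals went into each library, so P-values refer to the spread between libraries. With 2 libraries in most groups, that spread was estimated for each gene with help from the other genes. For cell type it was also shared over all 4 groups.

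The MEC libraries held between 25310926 and 27008166 counts and the macrophage libraries between 16935000 and 20174722. Levels are given as CPM, the count of a gene scaled to the size of its library, with a correction for library composition by the trimmed mean of M-values (TMM), and a level at or under 3 counts, which is 0.117 to 0.180 CPM on this scale depending on the library, was taken as the floor. *Cebpb* itself had 25 and 28 counts in WT MECs, 69 and 42 in *Cebpb*ΔM MECs, 13 and 15 in WT macrophages, and 16, 13, 5 and 4 in *Cebpb*ΔM macrophages. At these counts the macrophage genotypes overlapped, so *Cebpb* does not check the labels. The summed level of 8 macrophage markers was 7276 to 13198 CPM in the macrophage libraries and 31.3 to 42.7 CPM in the MEC libraries. The summed level of 5 epithelial markers, *Epcam* among them, was 20685 to 27085 CPM in MECs and 3623 to 6789 CPM in macrophages, so the F4/80-selected libraries also held epithelial transcripts. As these are bulk libraries, fewer cells of a type and less RNA per cell cannot be told apart. MECs and macrophages were also isolated in different ways, and their libraries differed in total counts. Cell type, isolation and depth therefore cannot be told apart in any comparison of MECs with macrophages below.

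Angiotensinogen, the product of *Agt*, is cut by renin to angiotensin I, and angiotensin-converting enzyme (*Ace*) trims that to angiotensin II. Aminopeptidase A (*Enpep*) shortens angiotensin II to angiotensin III, and insulin-regulated aminopeptidase (*Lnpep*) binds angiotensin IV. Angiotensin II acts through the type 1 receptor, which rodents encode with a pair of genes, *Agtr1a* and *Agtr1b*, and through the type 2 receptor *Agtr2*. *Atp6ap2* encodes the (pro)renin receptor, which is also an accessory subunit of the vacuolar proton pump (V-ATPase). In the body the system is best known for control of blood pressure and salt balance, and many tissues hold a local form of it.

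Because *Agtr1a* and *Agtr1b* are close copies, their coding starts are shown to let a reader judge whether counted fragments can tell them apart. *Agtr1a* lies at chr13:30336441-30382867 on the plus strand of GRCm38 and *Agtr1b* at chr3:20314473-20367177 on the minus strand. The first 150 coding bases of each, from GENCODE release M21, lie at chr13:30380954-30381103 in exon 3 of 3 of *Agtr1a*-201 and at chr3:20316291-20316440 in exon 2 of 2 of *Agtr1b*-201. They are printed 5′ to 3′ with the 10 differing bases in capitals.
Agtr1a: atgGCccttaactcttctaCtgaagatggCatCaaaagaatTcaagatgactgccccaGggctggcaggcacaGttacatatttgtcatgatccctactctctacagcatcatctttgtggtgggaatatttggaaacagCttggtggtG
Agtr1b: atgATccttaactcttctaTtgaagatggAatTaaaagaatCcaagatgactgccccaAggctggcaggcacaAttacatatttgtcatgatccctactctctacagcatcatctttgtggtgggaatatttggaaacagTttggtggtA
Over all 1080 coding bases, 99 differed, which is 90.8% identity, and the 359 encoded residues were 93.9% identical. The longest identical run was 66 bases, and each window of 150 bases held 5 to 25 differences. A read pair that spans such a window therefore carries bases that separate the receptors, although a read with several mismatches can still be placed on the wrong copy.

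The ligand precursor is shown because the hormone is a short stretch of it. *Agt* lies at chr8:124556534-124569706 on the minus strand. Its first 135 coding bases are at chr8:124564432-124564566, in exon 2 of 5 of *Agt*-201, with the 10 codons of angiotensin I, codons 30 to 39 of 482, in capitals.
Agt: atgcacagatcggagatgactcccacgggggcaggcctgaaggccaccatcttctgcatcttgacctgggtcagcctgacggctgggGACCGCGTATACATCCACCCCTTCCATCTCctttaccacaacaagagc
The counts reported here are of the whole transcript and do not measure the peptide.

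*Agt* was low in every library. Its level was 10.4 and 3.01 CPM in WT MECs, 5.12 and 4.78 CPM in *Cebpb*ΔM MECs, 3.76 and 6.998 CPM in WT macrophages, and 5.45, 7.06, 6.40 and 4.81 CPM in *Cebpb*ΔM macrophages. The groups overlapped in every comparison, and the WT MEC libraries differed from each other more (3.46-fold) than any pair of group means did. Between macrophage genotypes the log2 fold change was 0.12 ± 0.37 (SE), with an adjusted P of 0.97 by edgeR's quasi-likelihood (QL) test. *Ren1*, the gene of renin, had at most 1 count in MECs and at most 6 in macrophages.

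In MECs *Agtr1a* carried the largest fold difference between genotypes among the 6 genes past the filter on low counts. Its counts were 824 and 455 in WT and 3606 and 3002 in *Cebpb*ΔM libraries, or 33.3 and 18.5 CPM against 147 and 117 CPM. Both *Cebpb*ΔM libraries lay above both WT libraries, with group means of 132 ± 21.2 and 25.9 ± 10.5 CPM (SD, n = 2 each). In the fit the difference was 5.15-fold, or 2.37 ± 0.28 (SE) on the log2 scale. Genotypes without overlap, in either direction, were found for 28.2% of the 15698 genes tested in MECs. The fold change was the value by which the gene was chosen, and 0.051% of these genes passed an adjusted P of 0.05 in either direction. Without the WT library 3 the log2 fold change was 2.03. Whether *Agtr1a* passed the threshold is not read as a result, since these values chose it.

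In macrophages, whose libraries the choice of *Agtr1a* did not use, the level was 131 and 54.6 CPM in WT and 61.7, 58.2, 44.3 and 58.6 CPM in *Cebpb*ΔM libraries. The genotypes overlapped: WT library 5 lay among the *Cebpb*ΔM libraries, and WT library 4 was the highest of the 6. The log2 fold change was −0.76 ± 0.32 (SE), with an unadjusted P of 0.042 and an adjusted P of 0.56 by edgeR's QL test. It rested on WT library 4, without which it was 0.0048 (unadjusted P = 0.99, QL test). So the difference in macrophages did not pass after adjustment over all genes tested, and it depended on 1 library. Its 95% confidence interval, which is not adjusted, ran from −1.49 to −0.04. Whether the genotype difference itself differs between MECs and macrophages was not tested.

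**Figure D1:**
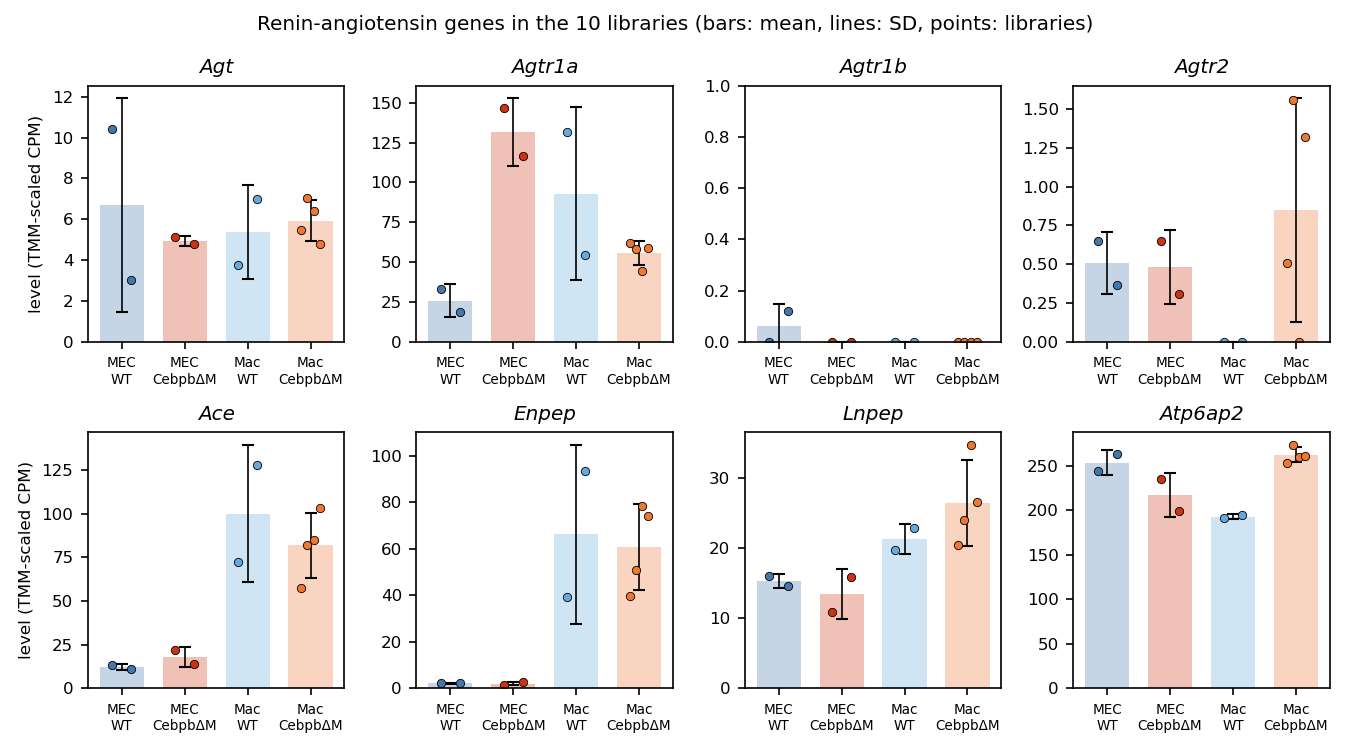
Level of each gene in the 10 libraries as TMM-scaled CPM (vertical axes, each starting at 0), by cell type and genotype, with Mac for macrophages, a point per library, bars at the group mean and lines for the SD. *Agtr1a* is at 147 and 117 CPM in *Cebpb*ΔM MECs and at 131 CPM in WT macrophage library 4, and *Ace* and *Enpep* are high in the macrophage libraries only.

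The order of the cell types for *Agtr1a* turned with genotype. Among WT libraries the macrophage mean was 92.9 CPM and the MEC mean 25.9 CPM, 3.59-fold higher in macrophages, with every macrophage library above both MEC libraries. Among *Cebpb*ΔM libraries the macrophage mean was 55.7 CPM and the MEC mean 132 CPM, which is 0.424 of the MEC level in the fit, with every macrophage library below both MEC libraries. Of all genes tested, 65.1% had cell types without overlap in WT and 52.9% in *Cebpb*ΔM mice, in either direction. The *Agtr1a* values are a description, as the MEC libraries in them are those that singled the gene out. The log2 difference in WT, 1.84, was 1.12 without WT macrophage library 4 and 1.48 without WT MEC library 3, and without *Cebpb*ΔM MEC library 1 that in *Cebpb*ΔM was −1.07 in place of −1.24.

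The macrophage level of *Agtr1a* was compared with the epithelial transcripts in the same libraries. The epithelial marker sum of macrophage libraries was 27.9% of the MEC sum in WT and 16.9% in *Cebpb*ΔM. For the 5 hormone-sensing luminal markers (*Esr1*, *Pgr*, *Prlr*, *Foxa1* and *Cited1*) it was 65.6% and 40.9%. The *Agtr1a* level of macrophage libraries was 359% of that of MECs in WT and 42.3% in *Cebpb*ΔM. WT macrophage library 4, which had the highest *Agtr1a*, had a hormone-sensing luminal sum of 1613 CPM, against 1710 CPM in WT library 5 and 634, 691, 1197 and 1704 CPM in the *Cebpb*ΔM libraries. The epithelial sums of the WT and *Cebpb*ΔM macrophage libraries, 6528 and 6789 CPM against 3623 to 4476 CPM, did not overlap, so epithelial content and genotype cannot be told apart there. The part of epithelial cells in the macrophage level of *Agtr1a* was not tested.

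Pericytes and fibroblasts are other cells known to express type 1 receptors. In macrophage libraries the pericyte marker sum was 530 to 552 CPM in WT and 322 to 706 CPM in *Cebpb*ΔM. The fibroblast marker sum there was 6550 to 6972 CPM in WT and 3244 to 7599 CPM in *Cebpb*ΔM. In WT these sums were 9.78-fold and 1.15-fold those of MECs. The part of these cells in the macrophage level of *Agtr1a* was not tested. The pericyte marker sum was 63.8 and 46.8 CPM in WT MECs and 37.4 and 62.3 CPM in *Cebpb*ΔM MECs, so it overlapped between the genotypes that differed in *Agtr1a*. The fibroblast marker sum was 6432 and 5316 CPM in WT MECs and 5269 and 6275 CPM in *Cebpb*ΔM MECs, which overlapped too. The hormone-sensing luminal sum was 2128 and 2937 CPM in WT MECs and 2337 and 2825 CPM in *Cebpb*ΔM MECs. Luminal progenitor markers, 1998 and 2671 CPM in WT MECs, were at 3234 and 1262 CPM in *Cebpb*ΔM MECs. None of these 4 marker sums separated the MEC genotypes. Of the 14 marker sums 4 did, each higher in *Cebpb*ΔM MECs. Of all genes tested in MECs, 28.2% separated the genotypes in one direction or the other. The erythroid sum was 26.7 and 33.9 CPM in WT and 134 and 57.6 CPM in *Cebpb*ΔM MECs, and the macrophage sum 36.7 and 31.3 CPM in WT and 37.1 and 42.7 CPM in *Cebpb*ΔM. The dendritic cell sum was 2.39 and 3.45 CPM against 4.92 and 5.75 CPM, and the lymphocyte sum 1.46 and 0.853 CPM against 2.11 and 1.86 CPM. Of the 6 lymphocyte markers, 5 were at the floor in every WT MEC library and 4 in every *Cebpb*ΔM MEC library. Of the 5 dendritic cell markers, 2 in WT and 3 in *Cebpb*ΔM MECs were at the floor throughout. The part of any of these cell types in the level of *Agtr1a* was not tested.

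**Figure D2:**
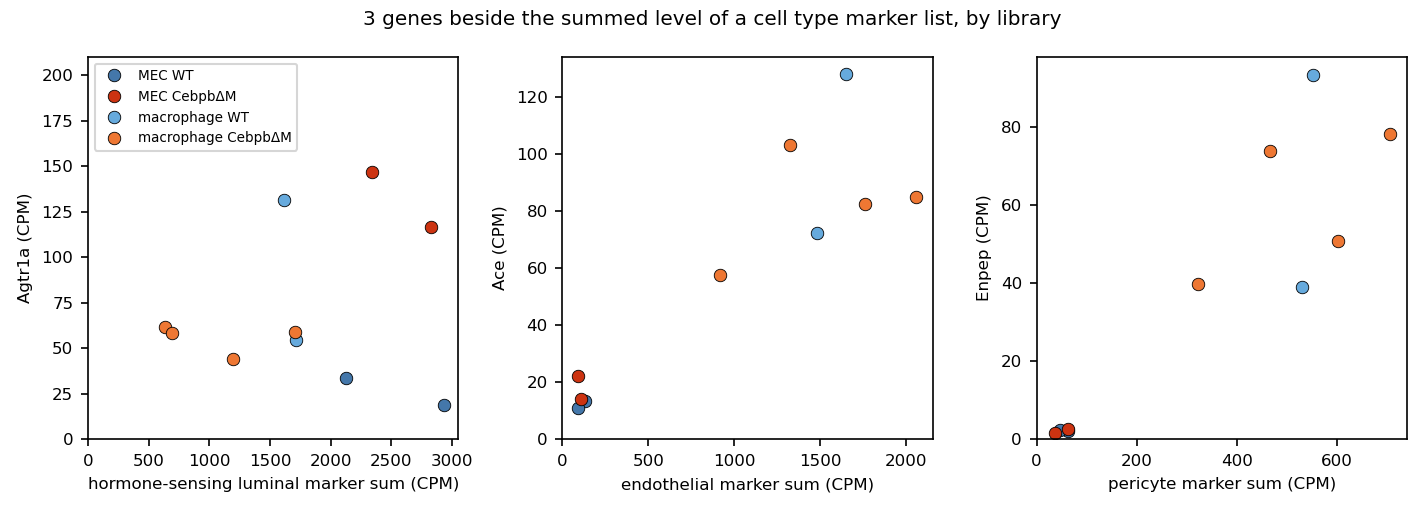
Level of *Agtr1a*, *Ace* and *Enpep* (vertical axes, TMM-scaled CPM) against the summed level of hormone-sensing luminal, endothelial and pericyte markers (horizontal axes, CPM), a point per library and a colour per group. The *Cebpb*ΔM MEC libraries have 147 and 117 CPM of *Agtr1a* at luminal sums between those of the WT MEC libraries, 2128 and 2937 CPM. *Ace* and *Enpep* are low in the MEC libraries, as are the endothelial and pericyte sums.

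*Agtr1b* had 3 counts in a single WT MEC library and 0 in the other 9, which allows a level of up to 0.117 to 0.180 CPM. *Agtr1a* was therefore the type 1 receptor gene that was counted in both cell types, within what the mapping of close copies allows. *Agtr2* had 16 and 9 counts in WT MECs and 16 and 8 in *Cebpb*ΔM MECs, 0.311 to 0.650 CPM, with overlapping genotypes. In macrophages it had 0 counts in both WT libraries and 10, 32, 0 and 22 in *Cebpb*ΔM libraries. A *Cebpb*ΔM library at 0 overlapped with WT, and the gene passed the filter on low counts only through *Cebpb*ΔM libraries, so it had to appear higher there. Its adjusted P was 0.54 by the QL test. *Agtr1b* passed the filter in neither cell type and *Agtr2* only in macrophages, which left 6 of 8 genes tested in MECs and 7 of 8 in macrophages.

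*Ace* was higher in macrophage libraries than in MEC libraries. Its level was 13.4 and 11.01 CPM in WT MECs and 22.1 and 14.1 CPM in *Cebpb*ΔM MECs, against 72.2 and 128 CPM in WT macrophages and 57.6, 82.4, 84.8 and 103 CPM in *Cebpb*ΔM macrophages. Every macrophage library lay above every MEC library. Cell types without overlap, in either direction, were found for 65.1% of the genes tested in WT and 52.9% in *Cebpb*ΔM mice, and in both genotypes for 4 of the 5 genes counted here, which leave out *Agtr1a* and *Agtr2*: *Ace*, *Enpep*, *Lnpep* and *Atp6ap2*. The difference between cell types was 8.21-fold in WT (log2 3.04 ± 0.36 SE, adjusted P = 1.5e-04, QL test) and 4.54-fold in *Cebpb*ΔM mice (log2 2.18 ± 0.32 SE, adjusted P = 4.4e-04, QL test). In MECs both *Cebpb*ΔM libraries were above both WT libraries, with a log2 fold change of 0.58 ± 0.29 (SE). That is a separation that 28.2% of genes showed in this comparison in one direction or the other. In macrophages the genotypes overlapped (log2 fold change −0.31 ± 0.29 SE, adjusted P = 0.82, QL test).

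*Ace* shares 295 nt of exon with *Gm11651*, an antisense gene on the other strand whose counts were 14.0% to 22.5% of those of *Ace* in MECs and 16.2% to 20.8% in macrophages. Counting was set to a reverse-stranded library, and whether the kit keeps strand is not given in the sources used here. The antisense gene *Tsix* was counted at 42.8% to 67.9% of *Xist* in MECs and at 16.6% to 21.6% in macrophages, while the ranges for *Gm11651* overlapped. No exon of another gene overlaps an exon of *Agtr1a*: *Gm48161*, with 14 to 104 counts, lies within an intron on the same strand. The same holds for *Enpep* and *Lnpep*, where *Gm42628* and *Gm49784* share 0 exonic bases and had at most 1 count.

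*Enpep* had the largest fold difference between cell types among the genes above the floor in every library. It was near 2 CPM in MECs, with 2.104 and 2.275 CPM in WT and 1.59 and 2.52 CPM in *Cebpb*ΔM libraries. In macrophages it was 39.1 and 93.4 CPM in WT and 39.8, 50.8, 78.3 and 73.8 CPM in *Cebpb*ΔM libraries. No macrophage library came near an MEC library, and the difference was 30.2-fold in WT (log2 4.92 ± 0.50 SE, adjusted P = 5.0e-05, QL test) and 29.4-fold in *Cebpb*ΔM mice (log2 4.88 ± 0.48 SE, adjusted P = 2.7e-05, QL test). Without WT macrophage library 5 the log2 difference in WT was 4.20. Genotypes overlapped in both cell types, with log2 fold changes of −0.07 ± 0.43 (SE) in MECs and −0.15 ± 0.38 (SE) in macrophages, where the adjusted P was 0.95 by the QL test.

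Endothelium is the classical site of *Ace*, and pericytes express *Enpep*. The summed level of 6 endothelial markers was 13.9-fold higher in WT macrophage than WT MEC libraries, and that of 6 pericyte markers 9.78-fold higher. By library the pericyte sum was 530 and 552 CPM in WT macrophages and 322, 603, 706 and 467 CPM in *Cebpb*ΔM macrophages, and none of the 6 markers was at the floor in every library of a group. The lowest *Ace* and the lowest endothelial sum among macrophages, 57.6 and 918 CPM, were in the same *Cebpb*ΔM library, number 4. That library also had the lowest pericyte sum, 322 CPM, with *Enpep* at 39.8 CPM. The lowest *Enpep*, 39.1 CPM, was in WT library 4, at a pericyte sum of 530 CPM. WT library 5 had the highest *Ace* and *Enpep*, 128 and 93.4 CPM, but not the highest endothelial or pericyte sum. The part of endothelial cells and pericytes in the macrophage levels of *Ace* and *Enpep* was not tested.

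*Lnpep* was at 16.1 and 14.6 CPM in WT MECs and 10.9 and 15.9 CPM in *Cebpb*ΔM MECs. In macrophages it was at 19.8 and 22.9 CPM in WT and 20.4, 24.0, 34.8 and 26.5 CPM in *Cebpb*ΔM libraries. Every macrophage library was again above every MEC library, by a smaller margin. In *Cebpb*ΔM mice the difference between cell types was 1.97-fold (log2 0.98 ± 0.26 SE, adjusted P = 0.015, QL test), and it did not pass without *Cebpb*ΔM MEC library 1 (log2 0.73, adjusted P = 0.15, QL test). In WT it was 1.39-fold and did not pass (log2 0.48 ± 0.29 SE, adjusted P = 0.26, QL test). Genotype made no detectable difference in macrophages (log2 0.29 ± 0.25 SE, adjusted P = 0.81, QL test), and in MECs the genotypes overlapped.

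*Atp6ap2* was abundant throughout. WT MECs had 244 and 263 CPM and *Cebpb*ΔM MECs 235 and 199 CPM, while WT macrophages had 191 and 195 CPM and *Cebpb*ΔM macrophages 254, 274, 260 and 262 CPM. In macrophages all 4 *Cebpb*ΔM libraries lay above both WT libraries, with means of 262 ± 8.47 CPM (SD, n = 4) and 193 ± 2.47 CPM (SD, n = 2). Groups without overlap in this direction were found for 10.4% of the 17772 genes tested. The difference, 1.34-fold in the fit (log2 0.42 ± 0.14 SE), had an unadjusted P of 0.017 and an adjusted P of 0.52 by the QL test, so it did not pass. The macrophage marker sum separated these libraries the same way, at 7276 and 7740 CPM in WT and 8507 to 13198 CPM in *Cebpb*ΔM, and the epithelial sum the other way, at 6528 and 6789 CPM in WT and 3623 to 4476 CPM in *Cebpb*ΔM. The part of this cell content in the level of *Atp6ap2* was not tested. Leaving out any macrophage library kept the log2 fold change between 0.40 and 0.43. In MECs both *Cebpb*ΔM libraries were below both WT libraries, at a log2 fold change of −0.21 ± 0.21 (SE). Of the genes tested in MECs, 28.2% separated the genotypes in one direction or the other. The macrophage level was 0.761 of the MEC level in WT (adjusted P = 0.11, QL test) and 1.21-fold the MEC level in *Cebpb*ΔM mice (adjusted P = 0.18, QL test).

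**Figure D3:**
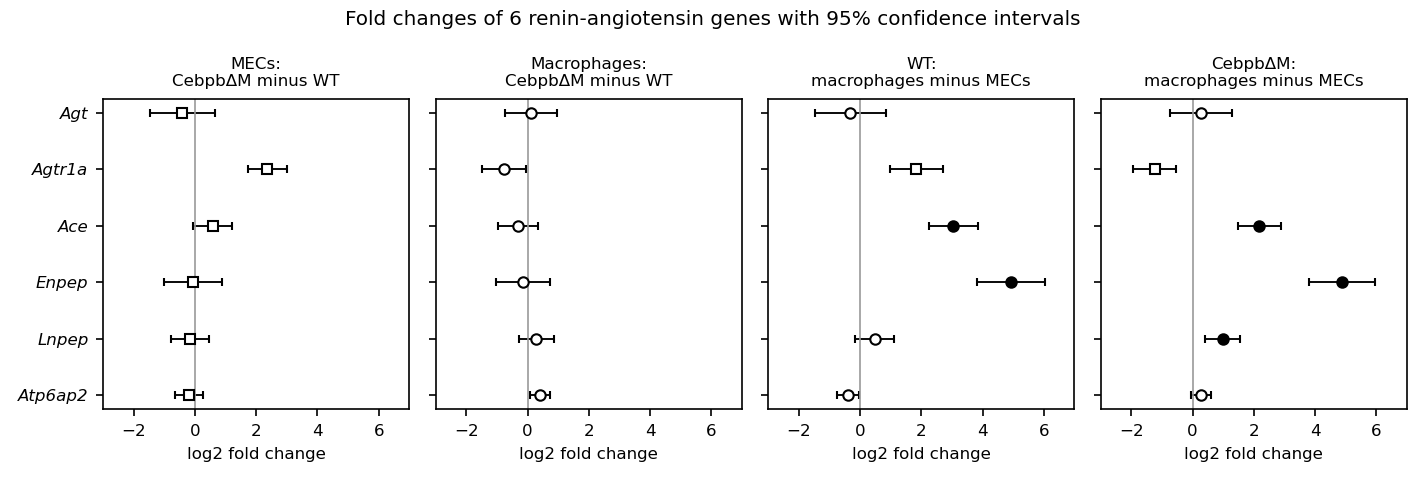
Log2 fold change with its 95% confidence interval for 6 genes (horizontal axes) in the comparisons of genotype within MECs, genotype within macrophages, and cell type within each genotype. Filled circles passed an adjusted P of 0.05 and open circles did not, and squares are values given without a test because they use the MEC libraries by which *Agtr1a* was chosen. *Agtr1a* is at 2.37 in MECs and −0.76 in macrophages, and *Enpep* is near 4.9 in both cell type comparisons.

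Counted together, *Agtr1a*, by which the genes were chosen, was the only one of the 6 tested in MECs past the threshold for genotype, so that count is no result. Of the 7 tested in macrophages 0 passed, as did 0% of all genes there by the QL test, and 0 of the 7 passed by the likelihood ratio test or DESeq2, which called 138 and 201 genes in all. Of all genes tested in macrophages 8.63% had an unadjusted P under 0.05, among them *Agtr1a* and *Atp6ap2*, and also *Agtr2*, whose direction the filter had set. Between cell types, *Agtr1a* is left out of the count because its MEC libraries were those that chose it, and *Agtr2* because it passed the filter only through macrophage libraries. Of the remaining 5, *Ace* and *Enpep* passed in WT mice, where 25.5% of 18323 genes passed in either direction. In *Cebpb*ΔM mice *Ace*, *Enpep* and *Lnpep* passed, where 33.7% of genes passed. The median log2 fold change over all genes was −0.01 and 0.00 for genotype in MECs and macrophages, and 0.06 and 0.07 for cell type in WT and *Cebpb*ΔM mice.

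Levels were also ordered per length, as CPM per kilobase of exon. *Atp6ap2* was first in 10 of 10 libraries, and *Agtr1a* second in 8 of 10. In WT MECs *Atp6ap2* (96.9 CPM per kilobase) was followed by *Agtr1a* (9.30), *Agt* (3.54), *Ace* (2.31), *Lnpep* (1.08), *Enpep* (0.465) and *Agtr2* (0.152), and only *Agt* and *Ace* overlapped as neighbours. In *Cebpb*ΔM MECs *Agtr1a* stood at 47.2 CPM per kilobase, still below *Atp6ap2* (83.0) without overlap, and *Ace* and *Agt* overlapped again. In both macrophage groups the order was *Atp6ap2*, *Agtr1a*, *Ace*, *Enpep*, *Agt* and *Lnpep*. There *Agtr1a* (33.4 in WT, 20.0 in *Cebpb*ΔM), *Ace* (18.9 and 15.5) and *Enpep* (14.1 and 12.9) overlapped as neighbours, so their order is not set beyond the spread between libraries.

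Among the genes whose log2 CPM was most like that of *Agtr1a* over the 10 libraries, out of 18322 others, were *Lonp1* (Pearson r = 0.91), *Gfra4* (0.89), *Abo* (0.85) and *Hba-a1* (0.83). The points share libraries, depth and cell type, so the r is a description. The MEC libraries among them are those by which *Agtr1a* was chosen, which favours genes with a like difference there. *Lonp1* encodes a mitochondrial protease, *Abo* the blood group glycosyltransferase and *Hba-a1* an α-globin chain. *Lonp1* was at 19.8 and 14.9 CPM in WT MECs, 35.0 and 25.5 CPM in *Cebpb*ΔM MECs, and 28.7 CPM in WT macrophage library 4, against 16.5 to 22.7 CPM in the other 5 macrophage libraries. *Hba-a1* was at 84.0 CPM in that library and at 17.9 to 50.5 CPM in the other 5. *Abo* was at 7.02 CPM in WT macrophage library 4, at 3.29 and 0.89 CPM in *Cebpb*ΔM MECs and at 0 to 0.66 CPM elsewhere. Its r therefore rests on few libraries, with the rest at or near the floor. All 4 genes had their highest macrophage level in WT library 4, as *Agtr1a* did, which their choice by likeness over the same libraries favours.

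The same library was looked at for the other genes that MECs separated by genotype. Besides *Agtr1a*, 6 genes passed the threshold as higher in *Cebpb*ΔM MECs, and 3 of these 6 (*Klk4* and *Tnfsf11* among them) had their highest macrophage level in WT library 4, against 18.3% of all genes tested in macrophages. *Tnfsf11*, which encodes RANKL, the paracrine signal of progesterone-responsive luminal cells, was at 0.324 and 0 CPM in WT MECs and 24.2 and 9.52 CPM in *Cebpb*ΔM MECs. In macrophages it was at 13.2 CPM in WT library 4, 0 in WT library 5, and 2.09, 8.09, 0 and 2.34 CPM in *Cebpb*ΔM libraries. The 3 others, *Sprr2a3*, *Calca* and *Srm*, had their highest macrophage level in *Cebpb*ΔM libraries. These genes were set beside *Agtr1a* after their values were seen, and they passed in the MEC comparison that chose it, so the share is a description. The list also depends on the test: 8 genes passed in MECs by the QL test and 179 by the likelihood ratio test.

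**Figure D4:**
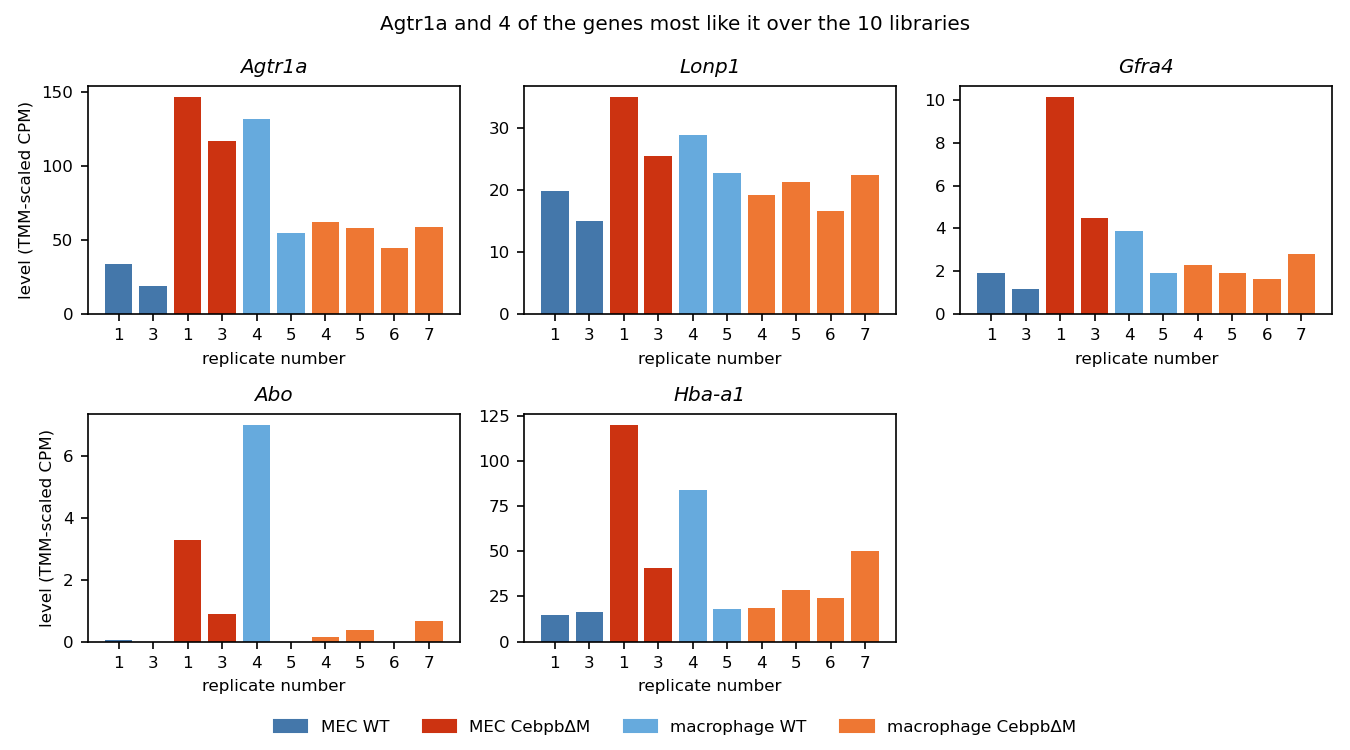
Level of *Agtr1a* and 4 of the genes most like it (vertical axes, TMM-scaled CPM from 0) in each library, ordered by group and replicate number. WT macrophage library 4 is the highest macrophage library in all 5 panels, at 131 CPM for *Agtr1a* and 28.7 CPM for *Lonp1*, which the choice of the 4 genes by likeness over these libraries favours.

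A wider set of 71 genes of the system was read in the same fits. It held other angiotensin-processing enzymes, other receptors and their partners, the signalling proteins of the type 1 receptor, the V-ATPase and other aminopeptidases of the M1 family. For genotype, 0 of 55 tested passed in MECs and 0 of 61 in macrophages. Their median log2 fold change was −0.04 in MECs and 0.03 in macrophages, close to the medians of all genes. Among the 24 V-ATPase genes, which share the pump with *Atp6ap2*, 21 were tested in macrophages, with 16 positive and a median of 0.13. Of these 21, 0 passed, and the median over all genes was 0.00. The macrophage and epithelial marker sums also separated these macrophage genotypes, and their part was not tested.

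By cell type, 22 of 61 passed in WT mice, 18 higher and 4 lower in macrophages, and 25 of 61 in *Cebpb*ΔM mice, 20 higher and 5 lower. Of all genes tested, 25.5% passed in WT and 33.7% in *Cebpb*ΔM mice, in either direction. The counts below are to be read against these shares. Of the 61, 5 (*Cma1*, *Mcpt4*, *Cpa3*, *Plcb2* and *Atp6v0d2*) were above 1 CPM in macrophage libraries alone, so the filter favoured a higher value there, and without them 17 of 56 passed in WT and 20 of 56 in *Cebpb*ΔM mice. The count of 22 in WT fell to 14 without WT MEC library 1 and to 12 without WT MEC library 3, and that of 25 in *Cebpb*ΔM to 16 without *Cebpb*ΔM MEC library 1. By list and without these 5, 9 of 18 signalling genes passed in WT and 8 of 18 in *Cebpb*ΔM mice, all higher in macrophages. Of 9 other processing enzymes, 1 was higher and 1 lower in WT, and 1 higher and 3 lower in *Cebpb*ΔM mice. Of 20 V-ATPase genes, 3 were higher and 3 lower in WT, and 6 higher and 2 lower in *Cebpb*ΔM mice. Of the 5 other M1 aminopeptidases and the 4 other receptors and partners tested, 0 passed in either genotype.

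*Mme*, which encodes neprilysin, an enzyme that makes angiotensin 1–7, was lower in macrophages. It was at 41.1 and 61.7 CPM in WT MECs and 12.8 and 15.4 CPM in WT macrophages (log2 −1.86 ± 0.29 SE, adjusted P = 0.0010, QL test), and at 45.9 and 42.1 CPM in *Cebpb*ΔM MECs against 9.85 to 16.9 CPM in *Cebpb*ΔM macrophages. *Mas1*, the receptor of angiotensin 1–7, had 1 to 11 counts in MECs, 0 in WT macrophages and at most 20 in *Cebpb*ΔM macrophages. *Agtrap*, whose product binds the type 1 receptor and promotes its internalization, was at 96.9 and 54.7 CPM in WT MECs and 68.8 and 145 CPM in WT macrophages, which overlapped.

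*Prcp*, which encodes the processing enzyme prolylcarboxypeptidase, was higher in macrophages, at 13.9 and 10.1 CPM in WT MECs and 48.5 and 66.7 CPM in WT macrophages (log2 2.26 ± 0.26 SE, adjusted P = 1.2e-04, QL test). *Cma1*, which encodes a mast cell chymase, had 0 and 5 counts in WT MECs and 271 and 282 in WT macrophages, and *Mcpt4*, another, had 0 in all MEC libraries and 117 and 89 in WT macrophages. *Cpa3*, a mast cell carboxypeptidase, was at most 4 counts in MECs and at 13.9 ± 3.04 CPM (SD, n = 2) in WT macrophages. These 3 genes are also mast cell markers: the sum of the 5 markers was 0 to 0.325 CPM in MECs and 33.9 to 76.6 CPM in macrophages, and the part of mast cells in these levels was not tested.

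Among signalling genes, *Arrb2*, which encodes β-arrestin 2, was at 2.27 and 2.03 CPM in WT MECs and 35.7 and 56.9 CPM in WT macrophages (log2 4.43 ± 0.29 SE, adjusted P = 1.9e-06, QL test). *Plcb2*, a phospholipase C that G proteins activate, had at most 3 counts in MECs and 93 and 60 in WT macrophages. *Grk5*, a kinase of G protein-coupled receptors, was at 3.21 and 2.99 CPM in *Cebpb*ΔM MECs and 10.3 to 19.7 CPM in *Cebpb*ΔM macrophages (log2 2.35 ± 0.34 SE, adjusted P = 3.4e-04, QL test). In the V-ATPase, *Atp6v1b1* was lower in macrophages, with 50.6 and 47.9 CPM in WT MECs and 4.97 and 12.4 CPM in WT macrophages (log2 −2.50 ± 0.55 SE, adjusted P = 0.0073, QL test). *Atp6v0d2*, a subunit of macrophages and osteoclasts, had 0 counts in all MEC libraries, 550 in WT macrophage library 4, 0 in WT macrophage library 5 and 187 to 342 in *Cebpb*ΔM macrophages, so the WT macrophages overlapped with MECs.

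**Figure D5:**
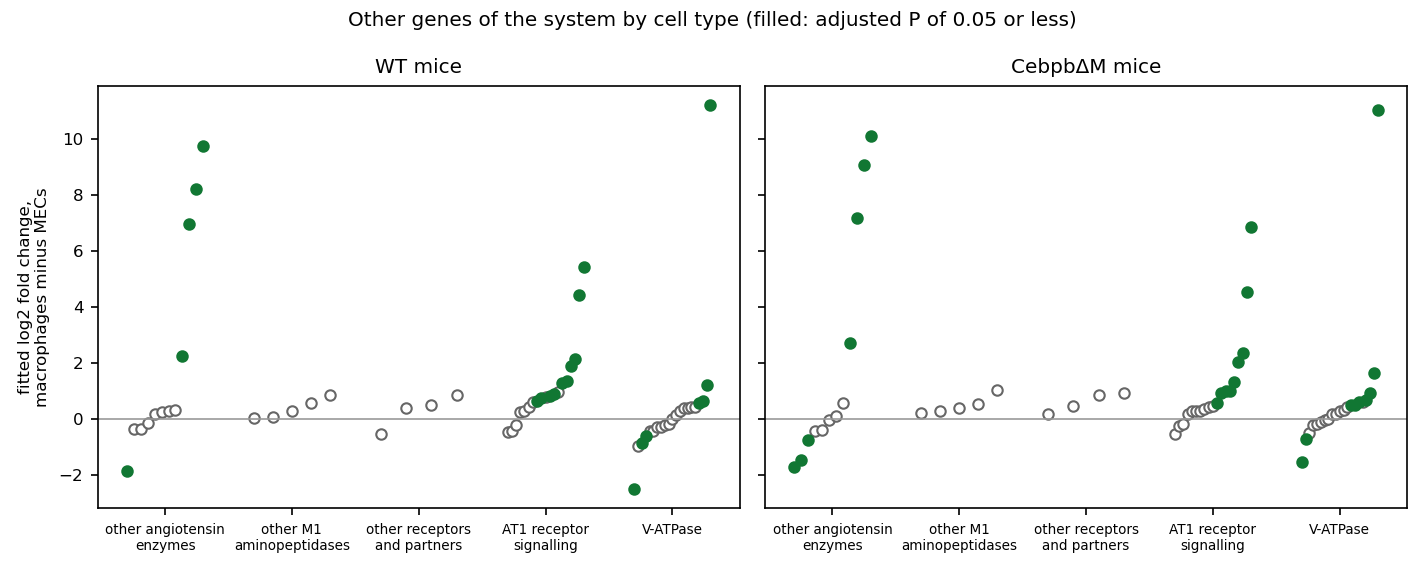
Fitted log2 fold change of macrophages minus MECs (vertical axis) for the other genes of the system by list, in WT and *Cebpb*ΔM mice, a point per gene. Filled points passed an adjusted P of 0.05, all 10 such signalling genes in WT mice lie above 0, and the points of genes at 0 counts in MECs, such as *Mcpt4* and *Atp6v0d2*, depend on the prior count of the fit and are no bounds. For the 5 genes above 1 CPM in macrophage libraries alone, the filter favoured a higher value there.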

How the data were processed

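The authors mapped trimmed reads with HISAT2 to GRCm38 and counted read pairs with featureCounts (version 1.6.2; Ensembl release 100, both ends mapped, mapping quality of at least 10, reverse-stranded). The deposited values are raw counts per gene, with no normalization. Genes under 300 nt (8951) were left out, as were those not above 1 CPM in at least 2 libraries of the fit. Counts were TMM-scaled and tested with edgeR's QL test (version 4.0.16; R version 4.3.3). P-values were adjusted by Benjamini–Hochberg across every tested gene, and 0.05 was the threshold. The genotypes were fitted within each cell type, and the cell types over all 10 libraries. The likelihood ratio test, which the study's methods name, DESeq2 (version 1.42.0), other scalings and filters, a replicate block, an epithelial covariate and left-out libraries were alternatives. Scripts were tested on simulated counts. Log2 CPM for likeness used a prior count of 2. Symbols came from GENCODE release M21 and matched 55141 genes. *Aopep* was listed but not matched. The 2 further MEC libraries named in the table's header are not analysed here.

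The 8 genes and the lists were chosen with earlier results of these data known. Named were the 8 genes, *Cebpb*, *Ren1*, *Mas1*, *Mme*, *Agtrap*, overlapping genes, the 5 genes most like *Agtr1a* and, of the wider lists, at most 8 passing genes per comparison by size of change. Of the genes this rule names, 2 are not reported here.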

Additional observations from a re-analysis of the deposited data

How the results depend on the processing

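These counts include *Agtr1a*, which was chosen on the MEC libraries, so whether it passed in MECs is no result under any setting. The number of the 8 genes that passed for genotype stayed at 0 in macrophages under all 14 alternatives, and in MECs it was 1 except without WT library 3 (range 0 to 1 with a library left out). For cell type in WT it was 3, 4 with the likelihood ratio test, which added *Agtr2*, 5 with DESeq2, which also added *Atp6ap2* (log2 −0.43, adjusted P = 0.029), and 2 to 3 with a library left out. In *Cebpb*ΔM mice it was 4, and 2 to 4 with a library left out. The wider lists gave 12 to 22 in WT and 16 to 26 in *Cebpb*ΔM mice with a library left out, and 0 for genotype throughout. Some fold changes that did not pass turned in sign, and the cause was not tested. With a library left out, the log2 fold change in MECs ran from −1.02 to 0.73 for *Agt* (above 0 without WT 1), from −0.47 to 0.25 for *Enpep* (0.02 without WT 3) and from −0.50 to 0.10 for *Lnpep* (above 0 without *Cebpb*ΔM 1). In macrophages it ran from −1.26 to 0.0048 for *Agtr1a* and from −0.26 to 0.63 for *Agt* (0.0048 and −0.26 without WT 4), and from −0.67 to 0.16 for *Ace* and −0.65 to 0.61 for *Enpep* (highest without WT 5; *Enpep* 0.0026 without *Cebpb*ΔM 4). The epithelial covariate, the mean log2 CPM of the epithelial markers, gave −0.69 for *Agt* and −0.57 for *Lnpep* in macrophages. For *Agtr1a* it gave −0.12 ± 0.89 (SE) in place of −0.76. The summed levels of these markers did not overlap between the macrophage genotypes, so epithelial content and genotype cannot be told apart. For cell type in WT, *Agt* ran from −0.95 to 0.84, and was 0.11 without WT macrophage 4. The labels do not say that replicate numbers mark a shared animal or litter, and same-numbered libraries deviated together little (r = 0.105 in MECs, 0.127 and −0.0861 in macrophages). With the replicate block 205 genes passed in MECs in place of 8 and 12 in macrophages in place of 0, while the counts over these 8 genes stayed at 1 and 0. The likelihood ratio test and DESeq2 called 179 and 161 genes in MECs. Depth limits what can be said of *Agtr1b*, *Agtr2*, *Ren1* and *Mas1*, which were at or near the floor in most libraries, and most groups had 2 libraries.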
